A study of Mus musculus with 32 samples.

Results

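The genes described here are 49 named protein-coding genes of mouse chromosome 4 that lie on either side of Car6, the gene for the secreted carbonic anhydrase VI. They were chosen by name, as neighbours of the knocked-out gene, and a probe counted for a gene when the probe annotation of the array gave the gene's current or older symbol. Of the 49 genes, 44 had a probe, of 16593 genes with a probe on the whole array. The name list leaves out several neighbours whose intensity had differed between genotypes in earlier results of these data, such as Plod1, Miip and Clstn1, so a count over the list says nothing of the whole neighbourhood. RNA was measured on Illumina bead arrays in lung of 6 Car6-/- mice and 8 wild-type mice and in trachea of 6 Car6-/- mice and 8 wild-type mice. All mice were C57BL/6 males aged 2 months, per the labels, and no treatment is given for any of the 4 groups. The labels give the knockout only as Car6-/-, with no further detail of the allele or of the cells it is lost from. Values are normalized log2 intensities, and a gene was called at a Benjamini-Hochberg adjusted p under 0.05 from limma. Nothing in the labels ties the samples to separate litters or days, so the p-values measure the spread between these samples.

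The list is held together by position and not by function. It includes Mtor, the kinase of the complexes that couple growth to nutrients; Mfn2, which fuses outer mitochondrial membranes; Pik3cd, the catalytic subunit of a phosphoinositide 3-kinase best known from lymphocytes; Errfi1, which inhibits receptors of the epidermal growth factor family; Tardbp, which binds RNA and governs its splicing; Park7, a redox-responsive protein; and H6pd, which makes NADPH inside the endoplasmic reticulum. Others encode a ribosomal protein (Rpl22), a kinesin motor (Kif1b), an actin-bundling protein (Espn), a death-domain receptor of lymphocytes (Tnfrsf25) and adaptors or enzymes of ubiquitin ligation (Fbxo6, Klhl21, Ube4b). Lung tissue is dominated by alveolar epithelium, vessels and immune cells. A dissected trachea holds surface epithelium, cartilage and smooth muscle, and tissue of its surroundings where this is taken along.

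Promoter windows of 300 bases, from 250 bases before to 50 bases after the annotated start, are shown for Errfi1, which had one of the larger tissue differences of the list, and for Lzic, which shares its start region with a listed gene of contrasting detection. Sequences are those of RefSeq on GRCm38.p6, whose promoter table holds 43 of the 49 genes in 69 windows. Capitals mark, on either strand, the TATA box TATAAA, the box CCAAT, the GC box GGGCGG, the palindrome TGACGTCA and the E-box CACGTG. The Errfi1 window is chr4:150854820-150855119 on the plus strand, 1 of 2 starts listed.
Errfi1: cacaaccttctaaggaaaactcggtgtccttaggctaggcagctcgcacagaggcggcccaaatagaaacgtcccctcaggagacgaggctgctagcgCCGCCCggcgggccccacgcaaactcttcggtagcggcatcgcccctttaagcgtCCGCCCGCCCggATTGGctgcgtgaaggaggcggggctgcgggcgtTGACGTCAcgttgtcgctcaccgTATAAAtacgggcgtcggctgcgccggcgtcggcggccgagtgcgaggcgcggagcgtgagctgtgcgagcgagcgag
The Lzic window is chr4:149485016-149485315 on the plus strand, also 1 of 2 starts listed.
Lzic: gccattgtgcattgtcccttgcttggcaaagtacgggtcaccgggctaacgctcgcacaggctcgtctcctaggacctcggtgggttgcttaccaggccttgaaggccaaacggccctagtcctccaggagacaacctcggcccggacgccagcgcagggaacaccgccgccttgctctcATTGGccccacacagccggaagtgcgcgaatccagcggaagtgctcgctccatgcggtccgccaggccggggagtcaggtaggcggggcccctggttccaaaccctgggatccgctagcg
In the Errfi1 window TATAAA begins 28 bases before the start and the TGACGTCA element 51 bases before it, both on the strand of the gene. GGGCGG lies on the opposite strand at 152, 97 and 93 bases before the start, the last of them overlapping each other, and CCAAT lies on the opposite strand at 85 bases before it. Over all 32851 windows of the table, TATAAA was found in 13.6%, CCAAT in 37.4%, GGGCGG in 35.7%, TGACGTCA in 1.79% and CACGTG in 7.15%. In the Lzic window the one match was CCAAT on the opposite strand, 70 bases before the start. Nmnat1, which encodes a nuclear enzyme of NAD synthesis, starts on the opposite strand 19 to 94 bases from Lzic, depending on which listed starts are taken. Its probe was detected in 0 of the 28 samples, whereas that of Lzic was detected in lung and in trachea. A second head-to-head pair of the list, Nphp4 and Kcnab2, has starts 189 to 593 bases apart, and both of its genes were detected in both tissues.

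The 32 arrays cover 28 samples, because 4 samples were run on a second array that was averaged with the first. Each array detected 11735 to 13139 of 25697 probes. The Car6 probe was detected on 0 of 32 arrays (smallest detection p 0.1203), with signals of 79.4 to 100.9 on the linear scale, so these arrays give no check of the knockout. Lung samples carried the alveolar type 2 markers at a mean log2 intensity of 12.08 to 12.36 in Car6-/- lung and 12.18 to 12.34 in wild-type lung. Of these 7 markers, 5 were tested in trachea, so the means of the tissues rest on different genes. In trachea they lay at 7.35 to 11.38 in Car6-/- samples and 7.62 to 8.34 in wild-type samples. Car6-/- tracheas 1 and 2 were at 10.98 and 11.38. Cartilage markers were measurable in trachea, at 6.72 to 7.79 in Car6-/- and 6.72 to 8.89 in wild-type samples. The tracheal samples also carried markers of other tissues, whose levels differed more among the Car6-/- samples than among the wild-type samples. Skeletal muscle markers had mean log2 intensities of 6.82, 9.74, 11.92, 11.68, 11.07 and 11.46 in Car6-/- tracheas 1, 2, 4, 5, 6 and 7, against 11.73 to 12.71 in the 8 wild-type tracheas. Thyroid markers lay at 4.52 to 9.13 in Car6-/- and 8.03 to 9.30 in wild-type tracheas, adipocyte markers at 7.06 to 9.36 against 6.94 to 7.67, and B cell markers at 6.12 to 9.96 against 5.79 to 6.33. Some lungs carried such markers too. Skeletal muscle markers were highest in Car6-/- lung 5 (10.04, others 5.27 to 6.16) and wild-type lung 6 (8.15, others 5.65 to 6.72). Wild-type lung 6 also had the highest thyroid markers (8.38). Cardiac muscle markers ran from 8.28 to 10.01 in Car6-/- and from 7.08 to 11.30 in wild-type lungs. The part of such tissue in the lung differences was not tested.

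A gene entered a comparison when 6 or more of the samples compared detected its probe at p under 0.01. By this filter 33 listed genes were tested in lung and 34 in trachea, the addition in trachea being Dffa, the inhibitor subunit of a DNA fragmentation nuclease. Pgd, Rere, Camta1, Zbtb48 and Plekhg5 had no probe under their symbols and are not analysed here. The other 10 genes had a probe but were not tested in either tissue. They were the chloride transporter Clcn6, the complement protease Masp2, the zinc-finger factor Casz1, Nmnat1, the receptor Gpr157, the fructose transporter Slc2a5, the sugar transporter Slc45a1, the mitochondrial protein Dnajc11, the nucleolar kinase Nol9 and the RING-finger protein Rnf207. Casz1 came closest, with detection in 0 of 6 Car6-/- lungs, 3 of 8 wild-type lungs, 0 of 6 Car6-/- tracheas and 1 of 8 wild-type tracheas. Clcn6, Nmnat1, Slc2a5, Slc45a1 and Dnajc11 were detected in 0 samples of each group. Of the 44 genes with a probe, 13 had several, and the probe with the highest mean intensity stood for the gene.

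In wild-type mice the listed genes differed widely between trachea and lung. Of the 33 genes tested, 10 were higher and 13 lower in trachea, beside 29.9% higher and 38.4% lower among all 10049 genes tested (68.3% called in either direction), so the share called was near that of the whole array. An unadjusted p under 0.05 was reached by 75.8% of the listed genes and 70.7% of all genes. The median difference over the listed genes was 0.01 and that over all genes -0.09. In bulk tissue, fewer cells of a type and less RNA per cell cannot be told apart. The tissues differed in the marker lists too. Skeletal muscle markers lay at 11.73 to 12.71 in wild-type trachea (10 genes) and at 5.65 to 8.15 in wild-type lung (the 7 tested there). These means rest on different genes, so the size of the gap is uncertain. The part of these cells in the differences below was not tested.

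Among the genes of mitochondria and peroxisomes, 3 of 4 were higher in trachea and 0 lower. Mfn2 had a lowest, median and highest log2 intensity of 10.77, 11.15 and 11.49 in wild-type trachea, against 9.95, 10.05 and 10.40 in wild-type lung. The groups did not overlap, and the difference was 1.05 ± 0.10 (SE, n = 8 each, adjusted p = 3.35e-08). Park7 was higher by 0.56 and Slc25a33, a mitochondrial carrier of pyrimidine nucleotides, by 0.49. Pex14, part of the docking complex of peroxisomal import, was at 0.07 (adjusted p = 0.446).

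Of the metabolic enzymes all 4 tested genes were called, 3 lower and 1 higher in trachea. H6pd was at 8.25, 8.44 and 8.83 (lowest, median and highest) in wild-type trachea, against 10.16, 10.21 and 10.31 in wild-type lung. No trachea reached the lowest lung value, and the difference of -1.75 ± 0.08 (adjusted p = 7.08e-13) was the largest on the lower side among the probes that stood for the listed genes. Acot7, a thioesterase that splits long-chain acyl-CoA, was at 9.67, 9.88 and 10.05 in trachea, against 11.37, 11.55 and 11.78 in lung. Its groups did not overlap either, and its 4 probes gave differences of -1.67 to -1.96. Icmt, which methylates prenylated proteins, was lower (-0.44). Srm, the spermidine synthase, went the other way, with 8.32, 8.61 and 8.74 in trachea and 7.54, 7.82 and 8.04 in lung, a difference of 0.79 ± 0.09 (adjusted p = 3.02e-07).

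The signalling genes also split, with 1 of 5 higher and 3 lower in trachea. Errfi1, whose promoter window is shown above, had 9.28, 9.61 and 9.85 in wild-type trachea, against 10.89, 11.10 and 11.55 in wild-type lung. The difference was -1.52 ± 0.10 (adjusted p = 2.22e-10), and every lung lay above every trachea. Tnfrsf25 was at 4.34, 5.03 and 5.43 in trachea and 5.27, 5.64 and 6.40 in lung, a difference of -0.73 ± 0.16 with overlapping groups. Its probe was detected in 6 of 8 wild-type tracheas and 8 of 8 wild-type lungs. Pik3cd was lower (-0.64), its probe being detected in 4 of 8 wild-type tracheas and 8 of 8 wild-type lungs, so that the size of this difference is uncertain. Ctnnbip1, which binds beta-catenin and blocks its partner TCF, was higher in trachea, at 7.35, 8.55 and 8.71 against 7.12, 7.30 and 7.40 in lung, a difference of 0.99 ± 0.18 in which the lowest trachea lay within the lung range. Mtor differed by 0.13 (adjusted p = 0.190).

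The widest rise in trachea was that of the secreted protein Angptl7, which is known from cornea and connective tissue. Its log2 intensity was 6.35, 8.15 and 9.09 (lowest, median and highest) in wild-type trachea, against 5.73, 6.02 and 6.73 in wild-type lung. The difference of 1.95 ± 0.31 (adjusted p = 2.70e-05) came with the largest spread of the list among wild-type tracheas (SD 0.93), and trachea 4, at 6.35, lay within the lung range. Espn was at 6.95, 7.32 and 8.33 in trachea and at 6.20, 6.42 and 6.62 in lung, higher by 1.02 ± 0.16 with no overlap; its second probe gave a smaller difference, 0.36 (adjusted p = 0.0494). Tmem201, a protein of the inner nuclear membrane, was at 7.15, 7.90 and 8.43 in trachea and 6.57, 6.81 and 6.99 in lung, higher by 1.05 ± 0.14 with no overlap. Vamp3, a SNARE of recycling endosomes, was lower, at 9.66, 9.78 and 9.92 in trachea and 10.32, 10.56 and 10.59 in lung (-0.74 ± 0.06, adjusted p = 9.38e-09).

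Genes of DNA, RNA and ubiquitin ligation showed smaller tissue differences. Zfp979, a zinc-finger gene, was at 4.76, 5.06 and 5.61 in wild-type trachea and 5.49, 5.82 and 6.10 in wild-type lung (-0.72 ± 0.13), and its probe was detected in 4 of 8 tracheas and 8 of 8 lungs. Mad2l2, a subunit of a translesion polymerase, was lower (-0.31), as were the chromatin reader Phf13 (-0.26) and Tardbp (-0.54). For the last pair the call depended on the probe: a second Phf13 probe gave 0.02 (adjusted p = 0.878), and further Tardbp probes gave 0.05 (adjusted p = 0.805) and -0.36 (adjusted p = 0.0992). Klhl21, an adaptor of a cullin ubiquitin ligase, was higher by 0.60 and Rpl22 by 0.32, while Fbxo6, which binds glycoproteins for ubiquitination, was lower (-0.32). The 10 genes tested and not called were 2510039O18Rik, Lzic, Exosc10, Mtor, Kcnab2, Thap3, Zfp933, Pex14, Ube4b and Nphp4, with differences between -0.16 and 0.27. In Car6-/- mice the means of all 23 called genes differed between trachea and lung in the same direction as in wild-type mice.

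**Figure D1:**
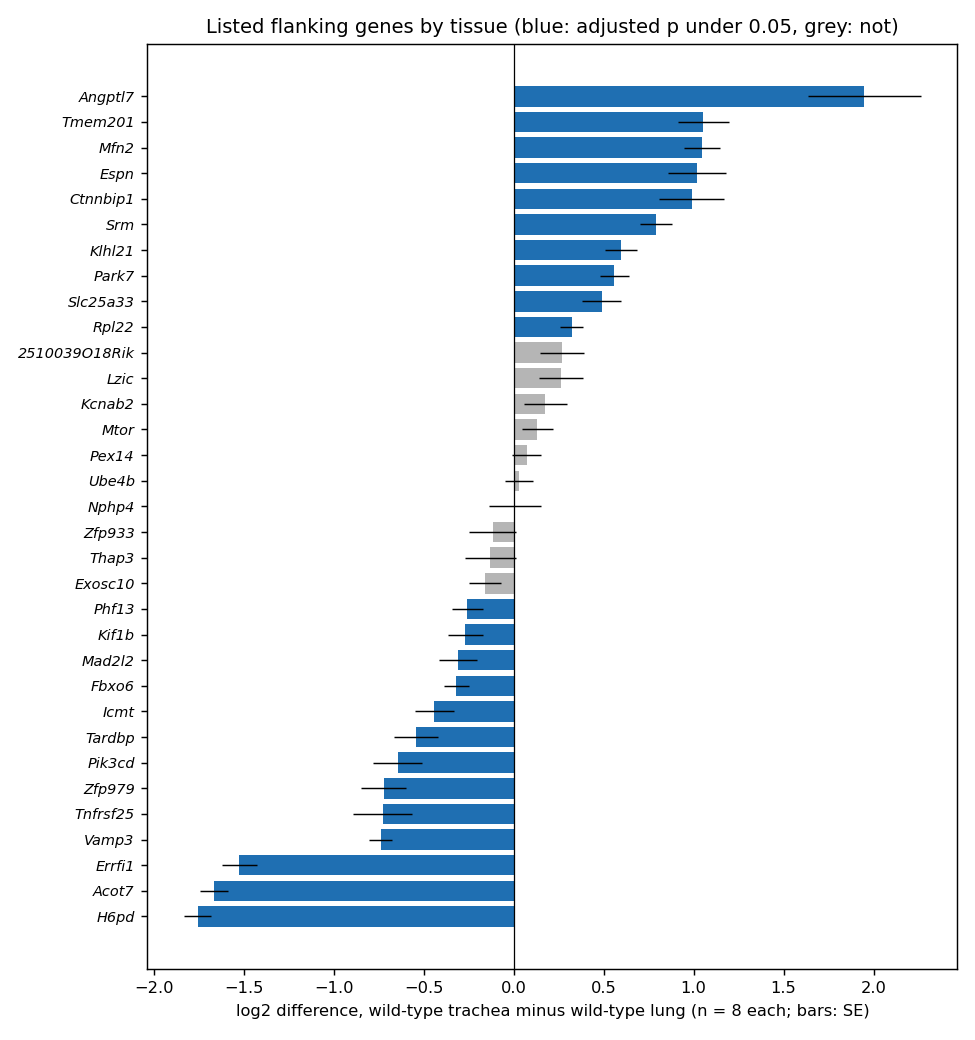
Difference in normalized log2 intensity, wild-type trachea minus wild-type lung, for the 33 listed genes tested, as bars with the SE (n = 8 each), blue where the adjusted p was under 0.05 and grey where it was not. Angptl7 (1.95) stands at the upper end and H6pd (-1.75), Acot7 (-1.67) and Errfi1 (-1.52) at the lower end.

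Lungs of Car6-/- and wild-type mice were compared for the neighbours of the knocked-out gene. With limma, 0 of the 33 listed genes were called, beside 2 of all 9440 genes (0.0212%). The lowest adjusted p over the listed genes was 0.210. An unadjusted p under 0.05 was reached by 4 of them (12.1%), beside 9.35% of all genes, and each sample left out in turn again gave 0 calls. Of the 33 genes, 17 had higher and 16 lower means in Car6-/- lung, the median difference was 0.01, and the differences ran from -0.53 to 0.31. The median size of the difference, without its sign, was 0.10, against 0.08 over all genes. For no listed gene were the 6 Car6-/- and 8 wild-type lungs free of overlap, which held for 0.212% of all genes.

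The 4 genes with the smallest p in lung were a zinc-finger gene, a mitochondrial carrier and a pair of signalling genes. Zfp979 had log2 intensities of 4.62, 5.48 and 5.62 (lowest, median and highest) in Car6-/- lung, against 5.49, 5.82 and 6.10 in wild-type lung. All 6 Car6-/- lungs lay below the wild-type mean and 3 below every wild-type lung, but the probe was dim, detected in 5 of the 6 Car6-/- lungs and in 8 of the 8 wild-type lungs. The difference was -0.53 ± 0.15 (SE; 95% interval -0.84 to -0.22; adjusted p = 0.210). Zfp979 has close relatives among the neighbouring zinc-finger genes, so its signal is uncertain, and whether its probe tells them apart was not tested. Its listed relative Zfp933 differed by -0.12 (adjusted p = 0.875). The Zfp933 probe was detected in only 2 of 6 Car6-/- and 4 of 8 wild-type lungs, so the size of this difference is uncertain.

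Slc25a33 was at 6.81, 7.02 and 7.34 in Car6-/- lung, against 7.15, 7.32 and 7.55 in wild-type lung. Every Car6-/- lung was below the wild-type mean and 4 were below all wild-type lungs. The difference was -0.30 ± 0.10 (adjusted p = 0.278). Pik3cd was at 5.72, 5.90 and 6.06 in Car6-/- lung, against 5.30, 5.70 and 5.82 in wild-type lung, with 4 of 6 Car6-/- lungs above all wild-type lungs (0.22 ± 0.08, adjusted p = 0.382). B cell markers, of the lineage in which Pik3cd is best known, had mean log2 intensities of 6.40 to 7.15 in Car6-/- lung and 6.92 to 7.32 in wild-type lung, with lower means in Car6-/- lung for 6 of 6 markers tested. The part of these cells in the Pik3cd values in lung was not tested. Errfi1 was at 11.02, 11.52 and 11.87 in Car6-/- lung, against 10.89, 11.10 and 11.55 in wild-type lung, with 3 of 6 Car6-/- lungs above all wild-type lungs and 2 below the wild-type mean (0.31 ± 0.13, adjusted p = 0.474).

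The next genes by p had smaller differences, none with an adjusted p under 0.57. Ctnnbip1 was at 7.10, 7.16 and 7.26 in Car6-/- lung, against 7.12, 7.30 and 7.40 in wild-type lung (-0.12 ± 0.06). Tardbp was at 6.69, 6.77 and 6.89 against 6.77, 6.88 and 7.24 (-0.13 ± 0.08), and Srm at 7.82, 7.88 and 8.14 against 7.54, 7.82 and 8.04 (0.14 ± 0.08), each with Car6-/- lung first. All 6 Car6-/- lungs lay below the wild-type mean for Ctnnbip1 and Tardbp and above it for Srm, with overlapping groups throughout. Tmem201 was at 6.68, 6.94 and 7.24 in Car6-/- lung and 6.57, 6.81 and 6.99 in wild-type lung (0.16 ± 0.10). Acot7 differed by 0.01 ± 0.07, Vamp3 by 0.05 ± 0.07 and Mfn2 by 0.01 ± 0.09, while Park7 differed by -0.12 ± 0.08. Mtor differed by 0.01 ± 0.07 with a 95% interval of -0.13 to 0.16.

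**Figure D2:**
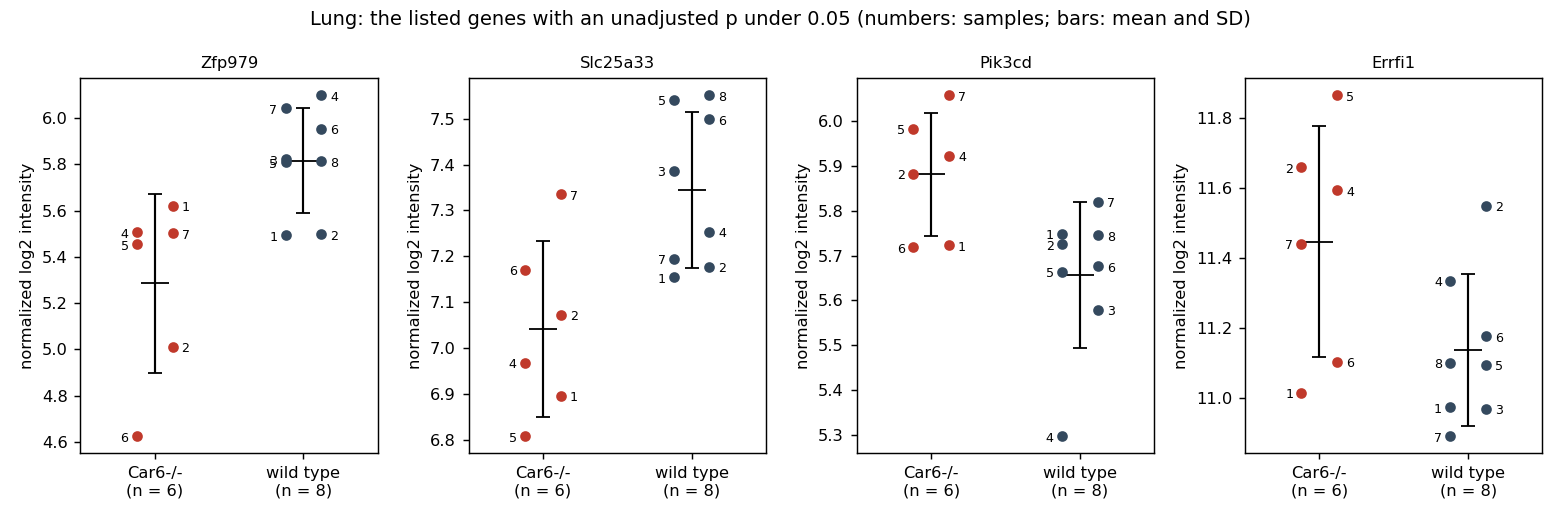
Normalized log2 intensity of Zfp979, Slc25a33, Pik3cd and Errfi1 in each lung sample, Car6-/- left (n = 6) and wild type right (n = 8), with sample numbers beside the points and the mean and SD as bars; each axis starts above 0. The groups overlap in every panel, as for Zfp979 with 4.62 to 5.62 in Car6-/- lung and 5.49 to 6.10 in wild-type lung.

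In trachea 0 of the 34 listed genes were called by limma, as were 0 of all 9759 genes (0%). An unadjusted p under 0.05 was reached by 6 listed genes (17.6%), beside 17.2% of all genes, so the listed genes did so at the share of the whole array. Their median difference was 0.04, as over all genes, and the differences ran from -0.80 to 0.68. The median size of the difference was 0.16, against 0.17 over all genes, both larger than in lung. No listed gene was free of overlap between the groups (0.225% of all genes were). One sample decided the calls: without Car6-/- trachea 4, limma called 5 of the 33 listed genes tested, beside 694 of all 9670 genes. Klhl21, Kif1b and Rpl22 were lower and Tnfrsf25 and H6pd higher in Car6-/- trachea, with adjusted p from 0.0195 (Rpl22) to 0.0473 (H6pd). Of the Car6-/- tracheas, trachea 4 had the highest skeletal muscle markers (11.92) and the lowest adipocyte markers (7.06), both within the wild-type range. Without Car6-/- tracheas 1, 2 and 6, which leaves only Car6-/- tracheas 4, 5 and 7, 0 listed genes and 0 of all 9508 genes were called. The count was also 0 with all samples, and so few samples could hardly give another, so nothing is drawn from this setting.

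Klhl21 had log2 intensities of 8.37, 9.05 and 9.37 (lowest, median and highest) in Car6-/- trachea, against 9.29, 9.57 and 9.72 in wild-type trachea. All 6 Car6-/- tracheas lay below the wild-type mean and 4 below every wild-type trachea. The difference was -0.57 ± 0.15 (95% interval -0.88 to -0.25; adjusted p = 0.151), and -0.64 without Car6-/- trachea 4. Rpl22, a protein of the large ribosomal subunit, was at 8.70, 8.99 and 9.54 in Car6-/- trachea, against 9.25, 9.41 and 9.52 in wild-type trachea. Of the Car6-/- tracheas 5 lay below every wild-type trachea and the other, trachea 4, above every one. The difference was -0.37 ± 0.12 (adjusted p = 0.157), and -0.47 without trachea 4.

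Tnfrsf25 was at 5.27, 5.55 and 6.27 in Car6-/- trachea, against 4.34, 5.03 and 5.43 in wild-type trachea. All 6 Car6-/- tracheas lay above the wild-type mean and 3 above every wild-type trachea (0.68 ± 0.20; 95% interval 0.26 to 1.10; adjusted p = 0.151). T cell markers, of cells that carry this receptor, had mean log2 intensities of 5.66 to 9.00 in Car6-/- trachea and 5.00 to 8.72 in wild-type trachea, with higher means in Car6-/- trachea for 5 of 5 markers tested, and their part in the Tnfrsf25 values was not tested. Pik3cd, also a lymphocyte gene, was spread widely, at 4.50, 5.68 and 7.09 in Car6-/- trachea and 4.55, 4.92 and 5.60 in wild-type trachea (0.60 ± 0.33, adjusted p = 0.370), and 4 of the 6 Car6-/- tracheas and 4 of the 8 wild-type tracheas detected its probe. B cell markers had higher means in Car6-/- trachea for 3 of 3 markers tested (differences of 0.64 to 1.77), and their part in the Pik3cd values was not tested.

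Park7 was at 11.59, 11.81 and 12.19 in Car6-/- trachea, against 11.86, 12.23 and 12.47 in wild-type trachea (-0.35 ± 0.12, adjusted p = 0.173), with 5 of 6 Car6-/- tracheas below the wild-type mean. H6pd was at 8.18, 8.91 and 9.18 in Car6-/- trachea, against 8.25, 8.44 and 8.83 in wild-type trachea. It was above every wild-type trachea in 3 Car6-/- tracheas and below every one in trachea 4. The difference was 0.33 ± 0.15 (adjusted p = 0.280), 0.45 without Car6-/- trachea 4 and 0.04 without Car6-/- tracheas 1, 2 and 6. Pex14 was at 7.92, 8.12 and 8.50 in Car6-/- trachea and 7.75, 7.98 and 8.14 in wild-type trachea (0.24 ± 0.11, adjusted p = 0.294). Phf13 was at 6.74, 7.05 and 7.40 in Car6-/- trachea and 6.97, 7.26 and 7.62 in wild-type trachea (-0.23 ± 0.12, adjusted p = 0.347).

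Several of the tissue-variable genes had a wide spread among Car6-/- tracheas. Espn had an SD of 1.03 in Car6-/- trachea, against 0.46 in wild-type trachea, and its values of 7.86 and 8.18 in Car6-/- tracheas 4 and 5 lay inside the wild-type range while the other 4, at 5.75 to 6.39, lay below it (difference -0.69 ± 0.37, adjusted p = 0.364). The second Espn probe gave -0.27. Thyroid markers were likewise within or near the wild-type range in Car6-/- tracheas 4 and 5, at 8.73 and 9.13, and at 7.00 or below in the other 4. Mfn2 was at 10.40, 10.90 and 11.60 in Car6-/- trachea and 10.77, 11.15 and 11.49 in wild-type trachea. Car6-/- trachea 1, which had the lowest skeletal muscle markers (6.82) and the highest cardiac muscle markers (13.31), had the highest Mfn2. The part of muscle, fat or thyroid RNA in the tracheal differences was not tested.

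**Figure D3:**
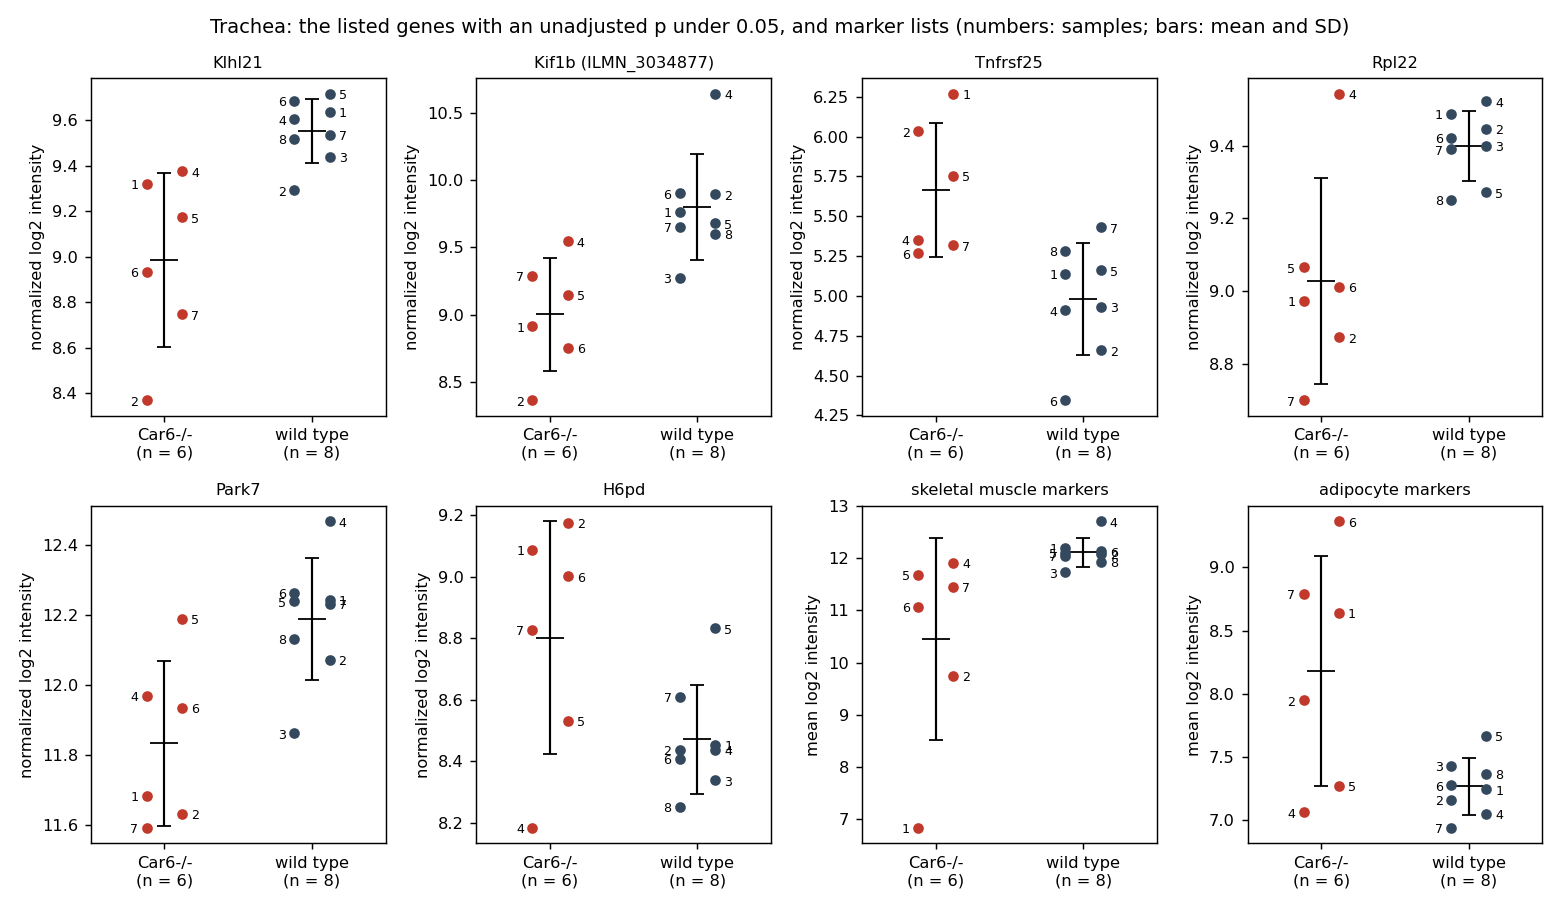
Normalized log2 intensity of the 6 listed genes with an unadjusted p under 0.05 in trachea, and mean log2 intensity of the skeletal muscle and adipocyte marker lists, in each sample, Car6-/- left (n = 6) and wild type right (n = 8), with sample numbers beside the points and the mean and SD as bars; axes do not start at 0. Car6-/- trachea 4 lies nearest to wild type for Klhl21 (9.37) and Kif1b (9.55) and beyond every wild-type sample, away from the other Car6-/- samples, for Rpl22 (9.54) and H6pd (8.18), and Car6-/- trachea 1 has the lowest skeletal muscle markers (6.82).

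Kif1b, a kinesin that carries mitochondria and synaptic vesicle precursors, was measured by 6 probes that gave different answers. The probe that stood for it in trachea, ILMN_3034877, was at 8.37, 9.03 and 9.55 in Car6-/- trachea, against 9.27, 9.72 and 10.64 in wild-type trachea. All 6 Car6-/- tracheas lay below the wild-type mean and 4 below every wild-type trachea (-0.80 ± 0.21, adjusted p = 0.151), and without Car6-/- tracheas 1, 2 and 6 the difference was -0.47. In lung the same probe was at 8.20, 8.31 and 8.38 in Car6-/- and 7.83, 8.00 and 8.32 in wild-type samples, a difference of 0.27 with the opposite sign (adjusted p = 0.273). ILMN_2670778, which had the highest mean in lung, gave 0.18 in trachea and 0.03 in lung. In trachea the 3 probes ILMN_1239729, ILMN_2654314 and ILMN_2670778 gave 0.19, 0.26 and 0.18, and ILMN_2647921 and ILMN_3108623 gave -0.17 and -0.33. The tissue difference divided the same way: ILMN_3034877 was higher in wild-type trachea by 1.77, and ILMN_2670778 lower (-0.27). A statement on Kif1b as a gene therefore depends on the probe, and which transcripts each probe reads was not examined here.

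**Figure D4:**
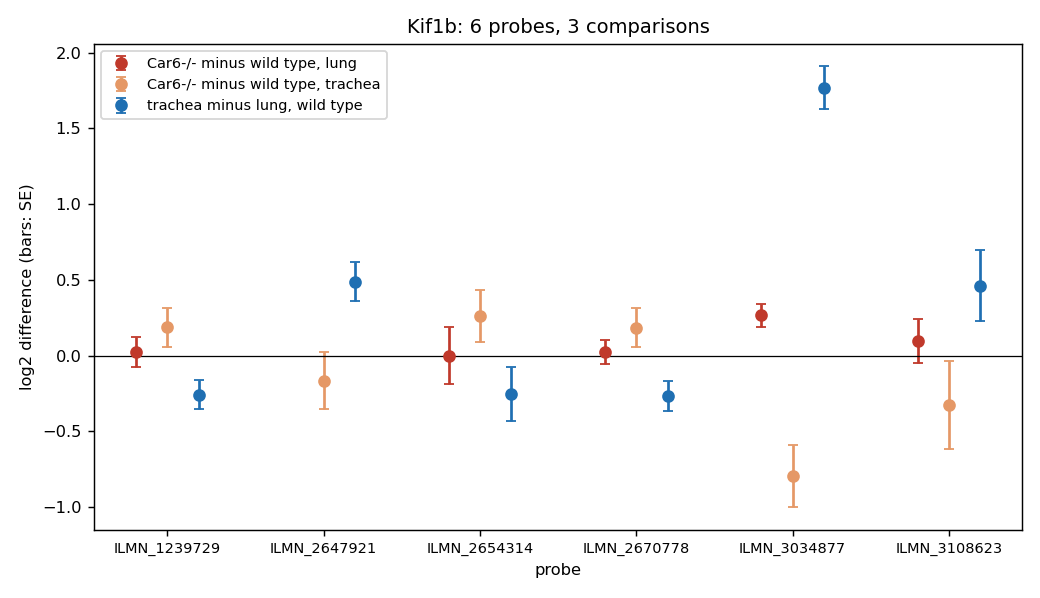
Log2 differences (points) with SE (bars) for the 6 Kif1b probes in 3 comparisons, Car6-/- minus wild type in lung, Car6-/- minus wild type in trachea, and trachea minus lung in wild type; ILMN_2647921 was not tested in lung. ILMN_3034877 stands apart from the other probes, at -0.80 in trachea by genotype and 1.77 between tissues.

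A single model with the 4 groups tested whether the genotype difference itself differed between trachea and lung. Of the 33 listed genes tested there, 0 were called by limma (0% of all 8835 genes), and 5 had an unadjusted p under 0.05 (15.2%, beside 12.8% of all genes). Among the probes that stood for the genes, the 3 with the smallest p were H6pd (trachea difference minus lung difference, 0.40 ± 0.16, adjusted p = 0.287), Klhl21 (-0.45 ± 0.19, adjusted p = 0.326) and Tnfrsf25 (0.57 ± 0.25, adjusted p = 0.335). Kif1b entered this model through ILMN_2670778 (0.16 ± 0.15, adjusted p = 0.666). Its probe ILMN_3034877, which stood for it in trachea, was not fitted here. That probe was higher in trachea than in lung by 0.71 in Car6-/- and by 1.77 in wild-type mice, a wider gap between genotypes than for the 3 genes named. For H6pd the lungs lay close together, at 10.06 to 10.28 in Car6-/- and 10.16 to 10.31 in wild-type samples. Averaged over both tissues, 0 listed genes were called, beside 1.23% of all genes (0.804% higher and 0.43% lower), and 7 had an unadjusted p under 0.05 (21.2%, beside 17.9%). The lowest adjusted p were those of Rpl22 (-0.23 ± 0.07, adjusted p = 0.0721), Klhl21 (-0.34 ± 0.10, 0.0731) and Park7 (-0.24 ± 0.07, 0.0753), all lower in Car6-/- mice in each tissue. With samples weighted by their spread, Rpl22 was called (adjusted p = 0.0433).

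The listed genes were also placed in order along the chromosome, counting protein-coding genes from Car6. The direct neighbours of Car6, Slc2a7 and Eno1, had no probe under these symbols and are not analysed here. Within 15 genes of Car6, 12 listed genes were tested in each tissue, of which 3 in lung (Pik3cd, Slc25a33 and Errfi1) and 2 in trachea (H6pd and Park7) had an unadjusted p under 0.05. Farther away, 1 of 21 in lung (Zfp979, 50 genes from Car6 and at the outer end of the list) and 4 of 22 in trachea did so. The median size of the difference in lung was 0.10 at either distance. In trachea it was 0.25 within 15 genes of Car6 and 0.13 farther away, a contrast that was not tested. These counts and medians depend on where the cut is set. Kif1b (-0.80 in trachea) and Klhl21 (-0.57) stand 16 genes from Car6, on opposite sides, and so count as farther away. Between the outermost listed genes lie 33 other protein-coding genes, of which 12 were tested in lung and 11 in trachea; 0 were called by limma in either tissue, 7 had an unadjusted p under 0.05 in each, and their median differences were -0.44 in lung and -0.36 in trachea. Those with an unadjusted p under 0.001 in lung were Miip (-0.57), Plod1 (0.55), Agtrap (-0.67), Fbxo44 (-0.62) and Clstn1 (-0.97), with adjusted p from 0.0984 to 0.152. They stand among listed genes with far smaller differences: Mfn2, next to Plod1, differed by 0.01 in lung, and Fbxo6, next to Fbxo44, by 0.06. The listed genes beside Clstn1 are Ctnnbip1 and Pik3cd, at -0.12 and 0.22. The name list leaves out neighbours already seen to differ in these data. Small differences of the listed genes beside them were therefore largely fixed by that choice, and are no result about position.

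**Figure D5:**
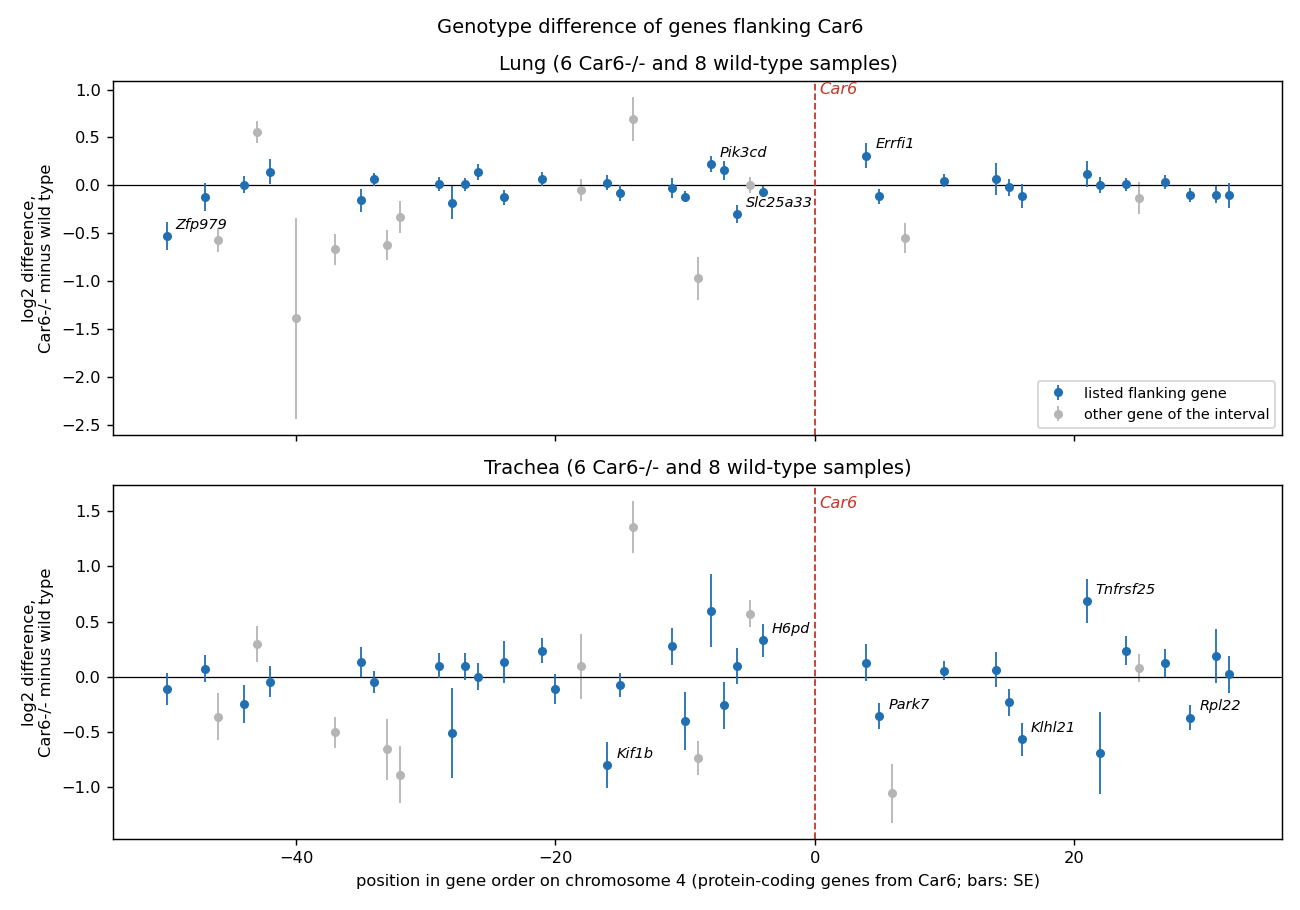
Log2 difference, Car6-/- minus wild type, with SE, in lung (upper panel) and trachea (lower panel) for the listed genes (blue) and the other tested genes of the interval (grey), against position in the order of protein-coding genes, Car6 at 0 (6 Car6-/- and 8 wild-type samples per tissue). Listed genes in lung lie between -0.53 and 0.31. The widest grey value is Nppa in lung (-1.39, with a large SE of 1.05) and Rbp7 in trachea (1.35), and Clstn1 is at -0.97 in lung. The list leaves out neighbours already seen to differ in these data.

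Partners of 4 listed genes were described alongside them. Of the mTOR partners tested, 0 of 8 were called by genotype with limma in lung and 0 of 8 in trachea (0 and 2 at an unadjusted p under 0.05), with median differences of -0.02 and 0.03; Mtor itself differed by 0.01 in lung and 0.10 in trachea. The tracheal partners ran both ways, 4 higher and 4 lower, from -0.35 for Akt1s1, an inhibitory subunit of mTOR complex 1 (adjusted p = 0.191), to 0.53 for Eif4ebp1, a translation repressor that mTOR phosphorylates (adjusted p = 0.287). In trachea against lung, 4 of the 8 were higher and 2 lower, among them Rictor, the scaffold of mTOR complex 2, at -0.76. Of the pentose phosphate enzymes, 0 of 4 tested were called in either tissue (1 in lung and 3 in trachea at an unadjusted p under 0.05). G6pdx and Rpe were not tested. H6pd opens this pathway inside the endoplasmic reticulum, and the arrays do not show in which compartment the other enzymes work. In trachea all 4 had higher means in Car6-/- samples (median 0.33), led by the transketolase Tkt (0.84, adjusted p = 0.151), with the list at 9.94 to 10.78 in Car6-/- and 9.69 to 10.29 in wild-type trachea. Tkt, Taldo1 and Pgls were higher in wild-type trachea than in wild-type lung, the opposite of H6pd. Of the RNA exosome subunits around the nuclease Exosc10, 0 of 8 were called by genotype in either tissue (1 in each at an unadjusted p under 0.05), and of the peroxisomal import factors around Pex14, 0 of 7 (1 in lung and 2 in trachea). Exosc10 differed by 0.01 in lung and 0.10 in trachea. By tissue, Exosc7 was lower in wild-type trachea (-0.86) while Exosc10 was not called (-0.16), and Pex19 and Pex26 were higher (0.44 and 0.31) while Pex14 was not called.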

How the data were processed

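RNA of lung and trachea was hybridised to Illumina bead arrays, per the labels. The authors deposited a table of linear probe intensity, neither background-corrected nor normalized between arrays, with a detection p-value beside each signal, per the file headers. A second table the authors deposited holds log2 values; recomputing it gave quantile normalization within each tissue (largest difference 0.0127, and 99.9999% of values within 0.01). Scanner software, chip and build: not given in the sources used here. Intensities underwent normexp background correction in limma (detection p, offset 16, which compresses differences of dim probes), quantile normalization over 32 arrays and conversion to the log2 scale. The second arrays of 4 samples were averaged with the first; for wild-type trachea 2 the root mean square difference between its arrays was 0.33, against 0.31 between its second array and wild-type trachea 6. Probes detected at p under 0.01 in at least 6 samples entered, the one with the highest mean standing for each symbol. The fits by lmFit and eBayes were followed by Benjamini-Hochberg adjustment over all genes tested (R 4.3.3, limma 3.58.1). In simulated data, noise was independent between genes, and 100 genes were shifted by 0.5 and another 100 by 1. With fewer changed genes fewer would be called, so the shares below may be too high for the real data. Shifts of 0.5 were called for 71 of 100 genes in lung and 25 of 100 in trachea. Shifts of 1 were called for 100 of 100 in lung and 66 of 100 in trachea. False calls were 9 of 180 in lung and 2 of 93 in trachea. Differences of about 0.5 would thus often be missed in trachea, and some would be missed in lung. The model of all 4 groups used genes detected in each tissue. The level of a marker list in a sample is the mean log2 intensity of those of its genes that were tested in that tissue. Levels of 1 list in lung and in trachea can thus rest on different genes. The number of arrays limits the precision.

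The 49 genes, the gene lists and the tests were chosen with earlier results of these data known. Named were the 8 genes with the smallest p by genotype in each tissue, 3 for the difference between tissues and for the average, and the 6 largest called tissue differences in each direction; other listed genes are named as their roles or neighbours are described, after their values were seen. RefSeq names and gene order (GRCm38.p6) were used, with no probe positions. Alternatives covered normalization, background, offset, the authors' log2 table, the detection filter, second arrays, array weights, a replicate block, samples left out and other probes of a gene.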

Additional observations from a re-analysis of the deposited data

Results flagged for a closer look

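Single samples stood apart from their group by Dixon's criterion in 8 of 84 groups of values tested for the named genes, where 5% of groups, or 4.2, would be marked by chance. In Car6-/- lung, Srm was at 8.14 in sample 6 against 7.82 to 7.91 in the others, and Espn was at 6.09 in sample 4 against 6.43 to 6.56. In wild-type lung, Pik3cd was at 5.3 in sample 4 (others 5.58 to 5.82), Tardbp at 7.24 in sample 2 (others 6.77 to 6.96), Mfn2 at 10.4 in sample 7 (others 9.95 to 10.16) and Vamp3 at 10.32 in sample 6 (others 10.52 to 10.59). In wild-type trachea, Slc25a33 was at 8.36 in sample 1 (others 7.53 to 7.92), and the Kif1b probe ILMN_3034877 at 10.64 in sample 4 (others 9.27 to 9.9). The 8 values come from 8 different samples, and wild-type trachea 4 also had the highest skeletal muscle markers of the wild-type tracheas (12.71).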

How the results depend on the processing

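No listed gene was called by genotype in lung under any alternative run, and the count in trachea was 0 under all but 1, running from 0 to 5 when single samples were left out (5 without Car6-/- trachea 4). The average over tissues gave 1 call with array weights (Rpl22) and 0 otherwise. The count by tissue stayed at 23 to 25. With the replicate block, 0 listed genes were called in lung, 0 in trachea, 0 for the difference between tissues, 0 for the average and 23 by tissue. Whether the sample numbers pair the samples was not settled. The correlation of deviations was over 0.1 for 0 of 6 same-numbered Car6-/- and wild-type lungs and for 3 of 6 tracheas (-0.08 to 0.48). For lung and trachea with the same number it was over 0.1 for 1 of 6 Car6-/- and 1 of 8 wild-type samples. The labels do not say that these came from the same mice, and a low correlation cannot decide it. Over all genes, the lung count ran from 0 to 6 under processing alternatives and from 0 to 34 with single samples left out (34 without Car6-/- lung 7), and the trachea count from 0 to 1 and from 0 to 694; the average ran from 61 to 233. Signs were checked for the genes named by the rule in the genotype comparisons, not for all listed genes, and other differences near 0 were not run. The changes of sign were as follows. In lung, H6pd was at 0.0201 with median scaling, Phf13 at 0.0290 with median scaling, 0.0294 with array weights, 0.0165 with the replicate block and 0.0446 without Car6-/- lung 5 and wild-type lung 6, where Kif1b was at -0.0097; with single samples left out, Phf13 ran from -0.068 to 0.042 and Kif1b from -0.0061 to 0.0689. In trachea, Srm was at -0.0063 without second arrays and ran from -0.0497 to 0.0821 with single samples left out. Other probes gave, in lung, -0.0019 for Kif1b (ILMN_2654314), 0.23 for Phf13 (ILMN_2882079) and 0.13 for Tardbp (ILMN_1244811), and in trachea 0.19, 0.26 and 0.18 for Kif1b, -0.24 for Srm (ILMN_2630641) and -0.0693 for Tardbp (ILMN_3029953). The cause was not tested. Low signal over background limits Zfp979 and Zfp933 in both tissues, Dffa, Pik3cd and Tnfrsf25 in trachea, and the 10 genes left untested.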
